A study of Mus musculus with 9 samples.

Results

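The 10 genes described here are 8 Toll-like receptors (Tlr1, Tlr2, Tlr3, Tlr4, Tlr5, Tlr7, Tlr9 and Tlr13), the adaptor Myd88 and the coreceptor Cd14. They were taken as a named list and found by symbol among 56398 features of a mouse RNA-seq count table, where all 10 had reads and all 10 passed the filter on low counts in every comparison. The table covers 9 libraries in 3 groups of 3, all from BALB/c mice. The AC group is colon tumour from mice injected with CT26 cells and dosed daily at 6 g/kg with a 2:1 mixture of Astragalus and Curcuma phaeocaulis Valeton, which are medicinal plants used in China. The model group is colon tumour from CT26-injected mice that received saline daily (the labels give 6 g/kg for it too), and the sham group is healthy colon labelled Sham. CT26 is 1 carcinoma line, derived from a colon tumour of a BALB/c mouse. The labels give no age, sex or injection site, and they do not say whether the libraries of a group are from different mice, so the p-values reflect the variation among these libraries alone, and that variation may be technical.

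Toll-like receptors are membrane proteins that recognise conserved molecules of microbes and products of damaged cells. Receptors at the cell surface bind lipopeptides, lipopolysaccharide or flagellin, and receptors in endosomes bind nucleic acids. All except Tlr3 signal through the adaptor Myd88, which recruits IRAK kinases and leads to NF-kappaB and inflammatory cytokines. In the gut these receptors are expressed by epithelial cells as well as by macrophages, dendritic cells and B cells, and in tumours largely by myeloid cells and by some cancer cells.

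Total counts ran from 15690038 to 23476056 per library, and 3 counts were worth 0.128 to 0.191 CPM, a count relative to the size of its library. Values called CPM below are scaled with TMM factors over the 9 libraries. The tissue labels were checked against markers. The summed level of 8 colonic epithelium markers was 287, 267 and 979 CPM in AC tumours, 497, 223 and 187 CPM in model tumours, and 25357, 41337 and 42764 CPM in sham colon. Sham 1 stood apart from the other sham libraries, with a summed level of 1032 CPM for 6 B cell markers (125 and 64.4 CPM in sham 2 and 3), 85.8 CPM for 5 T cell markers (37.4 and 36.9 CPM), 99.98 CPM for 4 smooth muscle markers (1097 and 1199 CPM) and the lowest epithelial sum of the colon libraries. AC tumour 3 and model tumour 1 had the highest epithelial sums of their groups. Results are given without these libraries where that changed a call or moved a fold change by more than 1.5 times.

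All positions are GENCODE M21 gene bounds on GRCm38, and all 10 genes are annotated as protein coding. Tlr1 (ENSMUSG00000044827) lies on chromosome 5 from 64924679 to 64933563, and its close relative Tlr6 lies beside it from 64952031 to 64960097. Tlr2 (ENSMUSG00000027995) lies on chromosome 3 from 83836272 to 83841767, Tlr3 (ENSMUSG00000031639) on chromosome 8 from 45395665 to 45411080, Tlr4 (ENSMUSG00000039005) on chromosome 4 from 66827584 to 66930284, and Tlr5 (ENSMUSG00000079164) on chromosome 1 from 182954788 to 182976044. Tlr7 (ENSMUSG00000044583) and Tlr13 (ENSMUSG00000033777) lie on chromosome X, from 167304929 to 167330558 and from 106143204 to 106160493. Tlr9 (ENSMUSG00000045322) and Myd88 (ENSMUSG00000032508) lie on chromosome 9, from 106222598 to 106226883 and from 119335934 to 119341411. Of the distinct stretches of 50 bases in the Tlr1 transcripts, 15.4% also occurred in transcripts of other genes (Tlr6 among them), so part of the Tlr1 reads may have been shared and its values are uncertain to that extent. For Tlr2, Tlr5, Tlr7, Tlr9 and Tlr13 the share was 0%, for Tlr4 0.216%, for Tlr3 5.3% and for Myd88 7.42%. The Tlr3 overlap is with the antisense gene Gm45542, which had 0 counts in every library. How reads from the shared stretch were counted is not known, so Tlr3 values are uncertain to that extent. The Myd88 overlap is with exons of Acaa1a on the opposite strand, and because no source used here gives the strand setting of the counting, Myd88 values are uncertain for that reason.

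The promoters of 5 genes are shown because these genes carry the opposite changes described below: in model tumours Tlr1 and Tlr2 had the largest falls and Tlr13 and Tlr9 the largest rises of the 10, and Myd88 is the adaptor they share. Each sequence is from RefSeq (GRCm38.p6), 250 bases before to 50 bases after a transcription start, 5′ to 3′ on the gene's own strand. Capitals mark matches to GAGGAAGT, a core of the site of PU.1, the myeloid and B cell transcription factor, or to GAAANNGAA, the core of the interferon-stimulated response element. In Tlr1 the capitals are the first motif, starting 23 bases before the start; in Tlr9 they are its reverse complement, starting 10 bases after the start; in Myd88 they are the second motif, starting 40 bases before the start.
Tlr1 (chr5:64933509-64933808, minus strand): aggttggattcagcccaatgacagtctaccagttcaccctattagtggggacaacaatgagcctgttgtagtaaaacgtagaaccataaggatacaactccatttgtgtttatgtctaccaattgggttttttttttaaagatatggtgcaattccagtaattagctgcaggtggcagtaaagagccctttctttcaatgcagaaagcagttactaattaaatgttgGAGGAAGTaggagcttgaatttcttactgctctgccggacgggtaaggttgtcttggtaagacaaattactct
Tlr2 (chr3:83841559-83841858, minus strand): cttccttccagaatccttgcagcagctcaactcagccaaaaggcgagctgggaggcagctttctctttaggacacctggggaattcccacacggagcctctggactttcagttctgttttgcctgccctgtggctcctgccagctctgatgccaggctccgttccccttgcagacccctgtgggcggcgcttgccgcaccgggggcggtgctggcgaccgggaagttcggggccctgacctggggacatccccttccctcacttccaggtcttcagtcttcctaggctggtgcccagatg
Tlr9 (chr9:106222348-106222647, plus strand): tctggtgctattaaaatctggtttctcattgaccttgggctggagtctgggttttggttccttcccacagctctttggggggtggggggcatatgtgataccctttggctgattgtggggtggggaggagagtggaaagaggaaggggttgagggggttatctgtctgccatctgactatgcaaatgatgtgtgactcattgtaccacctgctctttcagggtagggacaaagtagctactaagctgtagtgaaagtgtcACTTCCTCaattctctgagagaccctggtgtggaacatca
Tlr13 (chrX:106143025-106143324, plus strand): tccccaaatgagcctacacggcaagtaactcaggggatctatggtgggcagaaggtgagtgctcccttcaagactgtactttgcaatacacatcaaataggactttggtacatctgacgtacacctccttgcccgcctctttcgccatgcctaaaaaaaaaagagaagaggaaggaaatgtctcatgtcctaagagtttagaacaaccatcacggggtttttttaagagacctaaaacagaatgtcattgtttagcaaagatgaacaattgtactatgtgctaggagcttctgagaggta
Myd88 (chr9:119339969-119340268, minus strand): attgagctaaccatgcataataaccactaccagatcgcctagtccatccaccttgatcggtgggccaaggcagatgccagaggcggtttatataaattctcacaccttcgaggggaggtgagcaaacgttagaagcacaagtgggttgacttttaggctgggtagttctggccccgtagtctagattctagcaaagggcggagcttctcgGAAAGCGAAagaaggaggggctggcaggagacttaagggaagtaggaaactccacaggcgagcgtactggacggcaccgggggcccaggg

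Of the 10 genes, 7 had a promoter in the RefSeq table, with 8 entries because Tlr1 had a pair of them, and Tlr4, Tlr7 and Cd14 had no entry. Both strands were searched, and no match overlapped a match of the other motif in these 8 entries. GAGGAAGT occurred in 2 of the 8 entries, against 3.2% of 32851 promoters of the same length, and GAAANNGAA in 1 of 8, against 8.56%. The NF-kappaB forms GGGACTTTC (0.353% of all promoters) and GGGAATTTC (0.259%) occurred in 0 of 8. Only these exact letters were searched. Other forms of the NF-kappaB site were not, so their absence from these windows, that of Tlr2 included, is not shown. Matches were found in a gene that fell (Tlr1) and in a gene that rose (Tlr9), and the Tlr2, Tlr3, Tlr5 and Tlr13 windows and the other Tlr1 entry (chr5:64932650-64932949, not printed) held none of the 4 letter strings. These are letter matches in a window and were not tested as binding sites.

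Model tumours were compared with sham colon to ask how the receptor set of the tumour differs from that of healthy colon. Tlr13, Tlr9, Tlr7 and Tlr4 were higher in model tumours and Tlr1, Tlr2, Tlr5, Cd14, Tlr3 and Myd88 were lower, so that all 10 genes were called, 4 higher and 6 lower (edgeR quasi-likelihood test, Benjamini-Hochberg adjusted p under 0.05 over 18228 genes). Most genes differed between these tissues: 69.7% of all genes tested were called, 36.8% higher and 32.9% lower, so most genes passed this test and nothing beyond the directions of the named genes is read from the count. For each of the 10 genes the 3 model libraries lay wholly above or below the 3 sham libraries, which also held for 76.9% of all genes. The median log2 fold change of the 10 genes was -1.01, beside 0.12 over all genes tested. AC tumours compared with sham colon gave the same count, 4 higher and 6 lower, with 68.2% of 17832 genes called (35.5% higher, 32.7% lower), a median of -0.997 beside 0.10, and again no overlap for any of the 10 genes, as for 75.8% of all genes. The comparisons share the sham libraries and are not independent of each other. In bulk tissue, fewer cells of a type and less RNA per cell cannot be told apart.

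**Figure D1:**
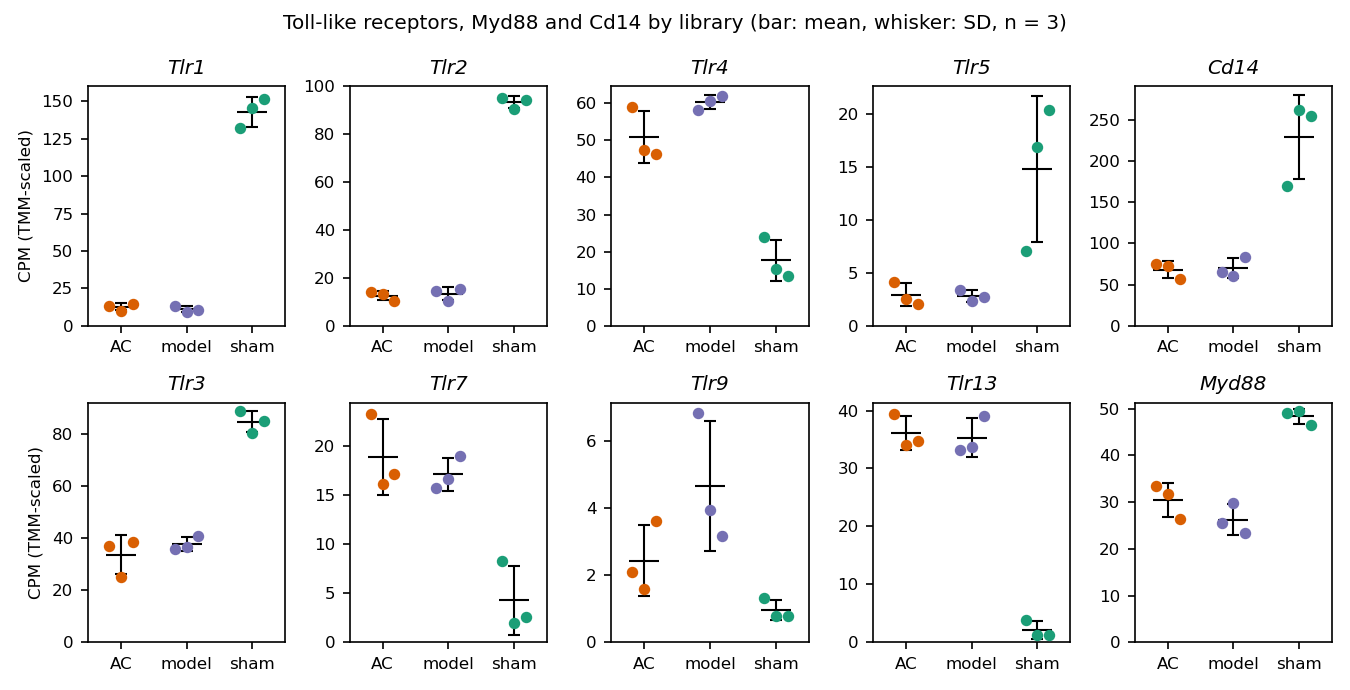
TMM-scaled CPM of the 8 receptors, Cd14 and Myd88 in each library (points), with the mean (bar) and SD (whisker, n = 3) of AC tumours, model tumours and sham colon; each panel has its own linear axis from 0. Tlr1, Tlr2, Tlr5, Cd14, Tlr3 and Myd88 sit higher in the 3 sham libraries than in any tumour, and Tlr4, Tlr7, Tlr9 and Tlr13 lower.

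Among the surface receptors, Tlr1 and Tlr2 had the largest falls. Tlr2 pairs with Tlr1 to bind triacylated bacterial lipopeptides. Tlr1 measured 13.4, 10.3 and 14.9 CPM in AC tumours, 13.2, 9.5 and 10.5 CPM in model tumours, and 132, 146 and 152 CPM in sham colon. The tumour and colon libraries were far apart and did not overlap. Tlr1 had a log2 fold change of -3.67 (SE 0.188, adjusted p 2.64e-05) in model tumours against sham and -3.46 (SE 0.192, adjusted p 4.7e-05) in AC tumours against sham.

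Tlr2 measured 14.02, 13.2 and 10.4 CPM in AC tumours, 14.7, 10.3 and 15.2 CPM in model tumours, and 95.1, 90.4 and 94.3 CPM in sham colon. Its spread was small in colon (93.3 ± 2.53 CPM, SD, n = 3) and no tumour library came near it. Against sham, the change of Tlr2 on the log2 scale was -2.78 (SE 0.193, adjusted p 5.71e-05) in model tumours and -2.90 (SE 0.152, adjusted p 4.18e-05) in AC tumours. Per length, the Tlr2 to Tlr1 ratio of FPKM was 0.771 to 1.42 in AC tumours, 1.21 to 1.61 in model tumours and 0.689 to 0.799 in sham colon, and in every colon library Tlr1 was the higher of the pair per length.

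Tlr5, the receptor for bacterial flagellin, also fell. It measured 4.18, 2.55 and 2.10 CPM in AC tumours, 3.42, 2.32 and 2.70 CPM in model tumours, and 7.08, 16.8 and 20.3 CPM in sham colon. Sham 1, which had the most B cell and the fewest smooth muscle and epithelial markers of the colon libraries, was the lowest of the colon libraries, but the groups did not overlap. Tlr5 had a log2 fold change of -2.35 (SE 0.420, adjusted p 0.00251) in model tumours and -2.31 (SE 0.459, adjusted p 0.00436) in AC tumours against sham.

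Tlr4, which recognises lipopolysaccharide, moved the other way from the other surface receptors. It measured 59.0, 47.5 and 46.3 CPM in AC tumours, 58.2, 60.7 and 61.9 CPM in model tumours, and 24.02, 15.5 and 13.5 CPM in sham colon. All 6 tumours lay above all 3 colon libraries, among which sham 1 was highest. Tlr4 had a log2 fold change of 1.78 (SE 0.258, adjusted p 0.00104) in model tumours and 1.52 (SE 0.274, adjusted p 0.00288) in AC tumours against sham.

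Cd14, a glycosylphosphatidylinositol-anchored protein that hands lipopolysaccharide to the Tlr4 complex, fell while Tlr4 rose. The gene (ENSMUSG00000051439) lies on chromosome 18 from 36725067 to 36726798, and its deposited FPKM implies a length of 1572 bases where the annotated exons sum to 1732. Cd14 measured 74.8, 72.9 and 56.5 CPM in AC tumours, 65.9, 60.6 and 83.2 CPM in model tumours, and 170, 262 and 254 CPM in sham colon. No tumour library reached the lowest colon library. Cd14 had a log2 fold change of -1.69 (SE 0.199, adjusted p 0.000433) in model tumours and -1.74 (SE 0.191, adjusted p 0.000389) in AC tumours against sham. Per length, the Cd14 to Tlr4 ratio of FPKM was 4.48, 5.42 and 4.32 in AC tumours, 4.01, 3.53 and 4.75 in model tumours, and 25.0, 59.8 and 66.8 in sham colon, so that the ratio of the coreceptor to the receptor differed between tumours and colon without overlap. Ly96 (MD-2), the other partner that completes the lipopolysaccharide receptor, was not called, with 4.90 ± 0.425 CPM in AC tumours, 4.55 ± 1.06 CPM in model tumours and 4.45 ± 2.92 CPM in sham colon (SD, n = 3 each).

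The endosomal receptors were mostly higher in tumours. Tlr13, which in mice detects a conserved sequence of bacterial 23S ribosomal RNA, had the largest rise of the 10 genes. It measured 39.4, 34.0 and 34.8 CPM in AC tumours, 33.1, 33.7 and 39.1 CPM in model tumours, and 3.89, 1.20 and 1.20 CPM in sham colon. The tumour libraries lay close together, and sham 1 lay above the other colon libraries. Tlr13 had a log2 fold change of 4.07 (SE 0.515, adjusted p 0.000579) in model tumours and 4.09 (SE 0.526, adjusted p 0.000732) in AC tumours against sham, and 4.90 and 4.83 without sham 1.

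Tlr7, a sensor of single-stranded RNA, measured 23.3, 16.2 and 17.2 CPM in AC tumours, 15.7, 16.7 and 19.0 CPM in model tumours, and 8.32, 2.00 and 2.55 CPM in sham colon. The groups did not overlap, and sham 1 was again the highest colon library. Its log2 fold change was 1.99 (SE 0.563, adjusted p 0.0176) in model tumours and 2.12 (SE 0.585, adjusted p 0.0168) in AC tumours against sham. It was 2.94 (model) and 2.98 (AC) without sham 1. The call was lost without model tumour 3 (adjusted p 0.0517) or without AC tumour 1 (adjusted p 0.0516).

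Tlr9, which detects unmethylated CpG DNA, was also higher in tumours. It measured 2.09, 1.60 and 3.62 CPM in AC tumours, 6.85, 3.96 and 3.16 CPM in model tumours, and 1.32, 0.801 and 0.779 CPM in sham colon. No tumour overlapped colon. Model 1 and AC 3 had the highest Tlr9 of their groups, and also the highest sums of epithelial, B cell and fibroblast markers. In sham colon the highest Tlr9 was in sham 1. Sham 1 had the highest B cell, fibroblast, macrophage, dendritic cell, T cell, neutrophil and endothelium sums of the colon libraries. Its epithelial and smooth muscle sums were the lowest. The macrophage sum of AC 3 was the lowest of its group (956 CPM). B cell sums were lower in every tumour than in any colon library, while Tlr9 was higher. The part of these cell types in the Tlr9 values was not tested. Tlr9 had a log2 fold change of 2.29 (SE 0.465, adjusted p 0.00435) in model tumours and 1.34 (SE 0.474, adjusted p 0.0418) in AC tumours against sham. The call in AC tumours was lost without AC tumour 1 (adjusted p 0.072), AC tumour 3 (0.125), sham 2 (0.117) or sham 3 (0.115), with the replicate block (adjusted p 0.0844) and with no filter on low counts (0.0534).

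Tlr3, the sensor of double-stranded RNA that signals through Ticam1 (TRIF) and not through Myd88, was the endosomal receptor that fell. It measured 37.1, 25.0 and 38.6 CPM in AC tumours, 35.7, 36.4 and 41.0 CPM in model tumours, and 88.7, 80.4 and 84.7 CPM in sham colon. Every colon library was above every tumour. Tlr3 had a log2 fold change of -1.15 (SE 0.123, adjusted p 0.000278) in model tumours and -1.33 (SE 0.209, adjusted p 0.00164) in AC tumours against sham. Its adaptor Ticam1 fell beside it, to 12.8 ± 0.688 CPM in AC tumours and 11.4 ± 0.301 CPM in model tumours, against 54.8 ± 14.7 CPM in sham colon (SD, n = 3 each; log2 fold change -2.24 in model and -2.08 in AC tumours, adjusted p 0.000191 and 0.000318).

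Myd88 had the smallest change of the 10 genes. It measured 33.4, 31.8 and 26.3 CPM in AC tumours, 25.6, 29.8 and 23.4 CPM in model tumours, and 49.1, 49.4 and 46.5 CPM in sham colon. The colon libraries lay close together and above all tumours. Myd88 had a log2 fold change of -0.86 (SE 0.153, adjusted p 0.00232) in model tumours and -0.67 (SE 0.139, adjusted p 0.0054) in AC tumours against sham. These calls rest on the scaling between tissues: without scaling factors Myd88 stood at -0.26 (adjusted p 0.155) and -0.01 (adjusted p 0.936). The median shift of all genes between these scalings was 0.60 in model and 0.65 in AC tumours against sham on the log2 scale, and the share of called genes that were higher was 67.3% and 68.2% without factors, beside 52.8% and 52.1% with them. Acaa1a, the peroxisomal thiolase gene that overlaps Myd88 on the other strand, fell to 20.96 ± 2.25 CPM in AC tumours and 20.4 ± 1.52 CPM in model tumours, against 126 ± 51.8 CPM in sham colon (SD, n = 3 each), and its part in the Myd88 values was not tested.

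**Figure D2:**
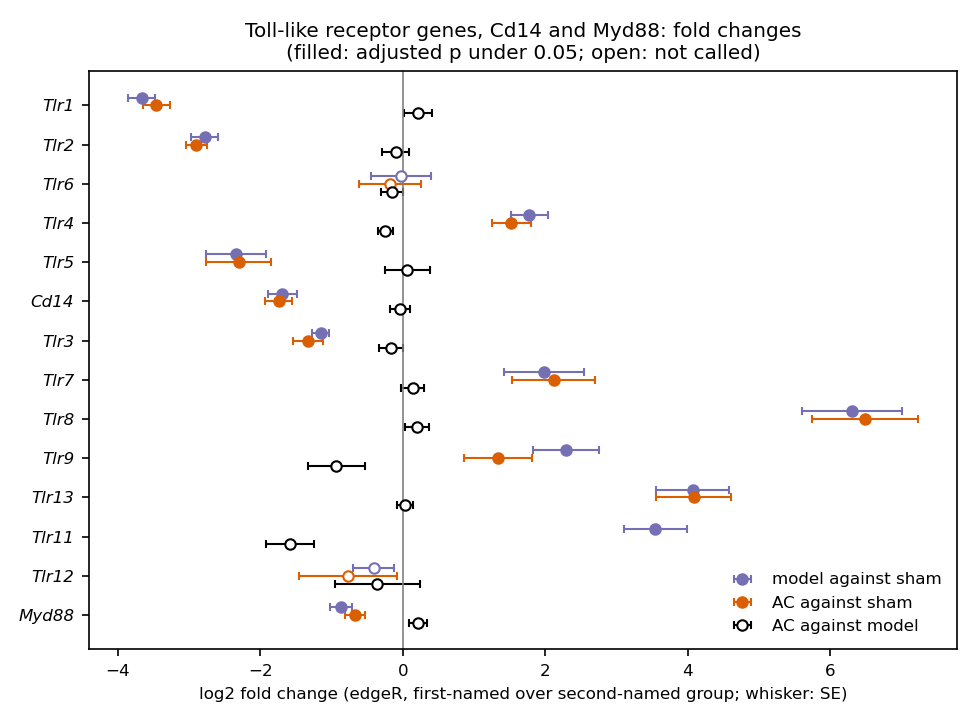
Log2 fold change (point) and SE (whisker) of the 10 genes and of Tlr6, Tlr8, Tlr11 and Tlr12, from edgeR, for model against sham (purple), AC against sham (orange) and AC against model (black). Filled points passed an adjusted p of 0.05; all AC against model points are open, and Tlr11 has no AC against sham point because it did not pass the filter on low counts there.

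The make-up of the receptor pool was compared per length, as each receptor's percent of the summed FPKM of the 8 receptors, a quantity in which scaling between libraries cancels. The summed level itself does depend on scaling, and no TMM factors were applied to it. It was 44.4 ± 5.76 FPKM in AC tumours, 46.1 ± 3.50 FPKM in model tumours and 73.0 ± 4.15 FPKM in sham colon (SD, n = 3 each). Tlr1 made up 9.14 to 11.9% of it in AC tumours and 7.38 to 9.80% in model tumours, against 40.6 to 45.2% in sham colon. Tlr2 made up 9.21 to 13.0% in AC tumours and 9.08 to 12.0% in model tumours, against 31.1 to 32.5% in sham colon. Neither share overlapped between tumours and colon. Tlr4 accounted for 22.3 to 25.4% in AC tumours and 25.9 to 28.9% in model tumours, against 2.41 to 4.45% in sham colon. Tlr13 accounted for 21.4 to 23.5% in AC tumours and 19.1 to 21.5% in model tumours, against 0.278 to 0.929% in sham colon. The share of Tlr3 overlapped between the groups, at 14.2 to 19.8% in AC tumours, 17.0 to 18.6% in model tumours and 16.1 to 17.5% in sham colon. Together the 4 endosomal receptors made up 53.0 ± 2.28% in AC tumours and 52.3 ± 1.55% in model tumours, against 18.4 ± 2.17% in sham colon (SD, n = 3 each).

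**Figure D3:**
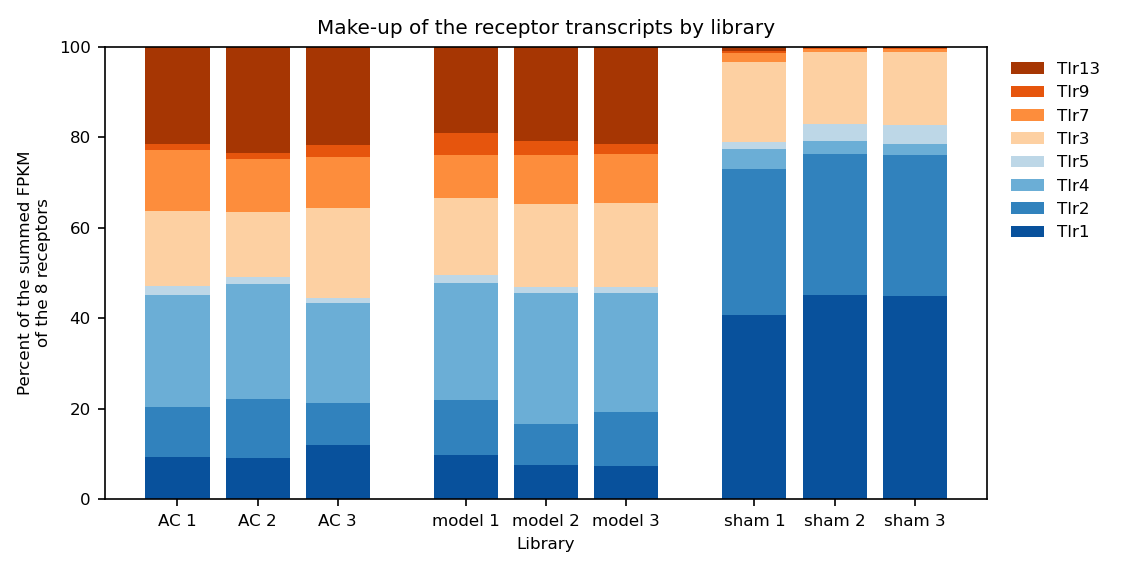
Percent of the summed FPKM of the 8 receptors taken by each receptor (stacked segments, blue for surface and orange for endosomal receptors) in every library of AC tumours, model tumours and sham colon. Tlr1 and Tlr2 fill most of the sham bars, and Tlr4, Tlr13 and Tlr3 most of the tumour bars.

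Ordered by mean FPKM, with SD over 3 libraries, AC tumours ran Cd14 (50.7 ± 7.06), Myd88 (13.9 ± 1.59), Tlr4 (10.7 ± 1.51), Tlr13 (9.81 ± 0.865), Tlr3 (7.55 ± 1.77), Tlr7 (5.42 ± 1.15), Tlr2 (4.86 ± 0.708), Tlr1 (4.52 ± 0.894), Tlr9 (0.824 ± 0.365) and Tlr5 (0.719 ± 0.270), with Myd88 to Tlr13, Tlr3 to Tlr1, and Tlr9 and Tlr5 overlapping. Model tumours ran Cd14 (51.1 ± 9.61), Tlr4 (12.4 ± 0.533), Myd88 (11.7 ± 1.25), Tlr13 (9.43 ± 1.04), Tlr3 (8.32 ± 0.764), Tlr2 (5.11 ± 1.09), Tlr7 (4.82 ± 0.541), Tlr1 (3.8 ± 0.674), Tlr9 (1.53 ± 0.633) and Tlr5 (0.674 ± 0.137), where Tlr4 to Tlr3 and Tlr2 to Tlr1 were runs of overlapping neighbours. Sham colon ran Cd14 (107 ± 18.4), Tlr1 (31.8 ± 0.277), Tlr2 (23.1 ± 1.88), Myd88 (14 ± 1.23), Tlr3 (12.1 ± 1.30), Tlr4 (2.40 ± 0.930), Tlr5 (2.25 ± 0.95), Tlr7 (0.810 ± 0.712), Tlr13 (0.375 ± 0.301) and Tlr9 (0.210 ± 0.0815). The ranges of neighbours overlapped from Tlr4 down to Tlr9 and between Myd88 and Tlr3, and the other neighbours were apart. Cd14 was first in every group, and Tlr9 or Tlr5 last.

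AC tumours were compared with model tumours to ask whether the herb pair changed the receptor set of the tumour. None of the 10 genes was called (edgeR, with 0 of 17137 genes called, or 0%), and the median log2 fold change of the 10 was -0.01, beside 0.01 over all genes. At an unadjusted p under 0.05 there were 2 of the 10 genes and 2253 of all genes; DESeq2 called 289 genes and limma voom 0, with 0 of the 10 among them. The 2 genes were Tlr9, with 2.44 ± 1.05 CPM in AC and 4.65 ± 1.94 CPM in model tumours (log2 fold change -0.93, SE 0.396, unadjusted p 0.0441, adjusted p 0.369), and Tlr4, with 50.9 ± 6.999 CPM in AC and 60.2 ± 1.91 CPM in model tumours (-0.24, SE 0.108, unadjusted p 0.0498, adjusted p 0.380; SD, n = 3 each). The AC and model libraries overlapped for all 10 genes, while 19% of all genes had no overlap. The SE of the other 8 log2 fold changes lay between 0.108 (Tlr13) and 0.316 (Tlr5), which sets the size of difference that these libraries could show. Leaving out AC tumour 3, the library of that group with the most epithelial markers, moved the number of genes called to 569 of all genes and to 0 of the 10.

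The 4 receptors outside the list were read beside them. Tlr8, the neighbour of Tlr7 on chromosome X (167242696 to 167264329) and an RNA sensor, measured 19.6, 13.5 and 15.6 CPM in AC tumours and 13.2, 13.96 and 15.2 CPM in model tumours, and had 1, 0 and 6 counts in the sham libraries. With 953 counts in AC tumours, 955 in model tumours and 7 in sham colon, the ratio to sham was 92.3 (95% counting interval 44.6 to 230.3) in AC and 79.0 (38.2 to 197) in model tumours, and edgeR called both (adjusted p 0.000447 and 0.00034). In tumours the Tlr7 to Tlr8 ratio of FPKM was 0.967 to 1.05 (AC) and 1.05 to 1.09 (model), so the neighbours stood at nearly the same level per length.

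Tlr6, the neighbour of Tlr1 that pairs with Tlr2 for diacylated lipopeptides, was not called against sham in either comparison, with 8.86 ± 0.878 CPM in AC tumours, 9.83 ± 0.508 CPM in model tumours and 9.98 ± 5.83 CPM in sham colon (SD, n = 3 each). Sham 1 had 16.7 CPM of Tlr6 against 6.57 and 6.65 CPM in the other colon libraries. The Tlr1 to Tlr6 ratio of FPKM was 1.45 to 1.85 in AC tumours, 1.07 to 1.59 in model tumours and 8.80 to 25.4 in sham colon. Of the stretches of 50 bases in the Tlr6 transcripts, 12.3% occurred in other genes, Tlr1 among them, and how reads from such stretches were counted is not known. Tlr11, which in mice binds profilin of protozoa, had 24 counts in AC tumours, 85 in model tumours and 4 in sham colon. It was higher in model tumours than in sham (ratio 12.3, 95% counting interval 4.63 to 46.2, edgeR adjusted p 0.000557), and its log2 fold change in AC against model tumours was -1.58 (SE 0.337, unadjusted p 0.00122, adjusted p 0.215), with no overlap of the libraries. Tlr12 was not called in any comparison, at 1.18 ± 1.12 CPM in AC tumours, 1.52 ± 0.148 CPM in model tumours and 2.05 ± 0.359 CPM in sham colon (SD, n = 3 each).

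Beyond the receptors, 13 tested genes are their coreceptors and partners or fold, route and process them. Of these, 7 were higher and 2 lower in model tumours and 6 higher and 2 lower in AC tumours against sham (medians 0.45 and 0.57 on the log2 scale). These counts, and those of the next lists, stand beside the shares of all genes called, which were 36.8% higher and 32.9% lower in model tumours and 35.5% higher and 32.7% lower in AC tumours; none is called particular to its list. Ctsl, a lysosomal cathepsin that cleaves endosomal receptors, rose to 1438 ± 187 CPM in AC tumours and 1424 ± 15.7 CPM in model tumours, against 174 ± 16.7 CPM in sham colon. Lgmn, the asparagine endopeptidase, rose to 277 ± 44.0 CPM in AC tumours and 247 ± 11.2 CPM in model tumours, against 125 ± 5.06 CPM in sham colon. Cd36, a scavenger receptor that assists Tlr2, was also higher (log2 fold change 2.41 in model and 2.34 in AC tumours). Ctss, another cathepsin, and Slc15a4, an endolysosomal histidine transporter needed for Tlr7 and Tlr9 signalling, were lower (-1.39 and -1.08 in model, -1.34 and -0.75 in AC tumours). Unc93b1, the chaperone that carries the endosomal receptors out of the endoplasmic reticulum, was not called, at 50.8 ± 4.33 CPM in AC tumours, 50.5 ± 6.83 CPM in model tumours and 57.9 ± 9.43 CPM in sham colon (SD, n = 3 each).

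Among 23 tested genes of signal transduction, 3 were higher and 12 lower in model tumours, and 3 higher and 10 lower in AC tumours, against sham (medians -0.33 and -0.18). Over all genes, 36.8% were higher and 32.9% lower in model tumours, and 35.5% and 32.7% in AC tumours. Without scaling factors 9 were higher and 6 lower in model tumours and 11 higher and 6 lower in AC tumours (medians 0.28 and 0.47), a setting in which 67.3% and 68.2% of all called genes were higher. Irf7, the factor that drives type I interferon downstream of Tlr7 and Tlr9, fell to 49.8 ± 8.96 CPM in AC tumours and 60.8 ± 7.58 CPM in model tumours, against 336 ± 96.6 CPM in sham colon. Irak2, a kinase of the Myd88 complex, was lower in both (-1.99 in model and -2.00 in AC tumours), as were Irak4 (-1.34 and -1.35) and Chuk, the IKK alpha kinase (-1.37 and -1.29). Irak1 (0.97 and 0.87), Traf3 (0.85 and 0.75) and Rela, a subunit of NF-kappaB (0.52 and 0.57), were higher. Traf6, Tirap, Nfkb1, Ikbkg and Tab1 were not called in either comparison.

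Of 12 genes that restrain the pathway, 1 was higher and 4 lower in model tumours and 2 were higher and 5 lower in AC tumours against sham (3 higher and 3 lower in each without scaling factors), where 69.7% of all genes were called in model tumours and 68.2% in AC tumours. Il1rl1, the interleukin 33 receptor ST2, rose to 307 ± 44.4 CPM in AC tumours and 399 ± 97.2 CPM in model tumours, against 3.15 ± 1.33 CPM in sham colon. Tnip1 and Tnip3, partners of the ubiquitin editor A20, and the ribonuclease gene Zc3h12a were lower (-2.55, -4.50 and -2.75 in model, -2.53, -5.07 and -2.88 in AC tumours). Sigirr, an inhibitory receptor, was called in AC tumours against sham (0.66, adjusted p 0.0328) and not in model tumours against sham (0.41, adjusted p 0.121), and AC against model tumours was not called either (0.26, adjusted p 0.333).

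Of 18 tested genes that the pathway induces in macrophages, 10 were higher and 6 lower in both comparisons against sham (medians 2.06 in model and 2.04 in AC tumours), where 36.8% of all genes were higher and 32.9% lower in model tumours, and 35.5% and 32.7% in AC tumours. Ptgs2, inducible cyclooxygenase, measured 160, 267 and 100.03 CPM in AC tumours, 193, 202 and 154 CPM in model tumours, and 4.35, 5.93 and 6.87 CPM in sham colon. Cxcl1, a neutrophil chemokine, rose (5.19 in model and 4.69 in AC tumours), as did Il1b (3.04 and 2.38) and Cxcl10 (3.04 and 2.83). Saa3, an acute phase protein, measured 20.3, 18.8 and 25.5 CPM in AC tumours, 21.6, 15.2 and 8.86 CPM in model tumours, and 248, 254 and 244 CPM in sham colon. Irf1 (-2.05 in model and -2.32 in AC tumours), Nos2 (-2.03 and -2.82) and Nfkbiz (-1.71 and -2.16) fell with it. Across these 4 lists, edgeR called 0 genes in AC against model tumours, with 1 to 3 genes of each list at an unadjusted p under 0.05.

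**Figure D4:**
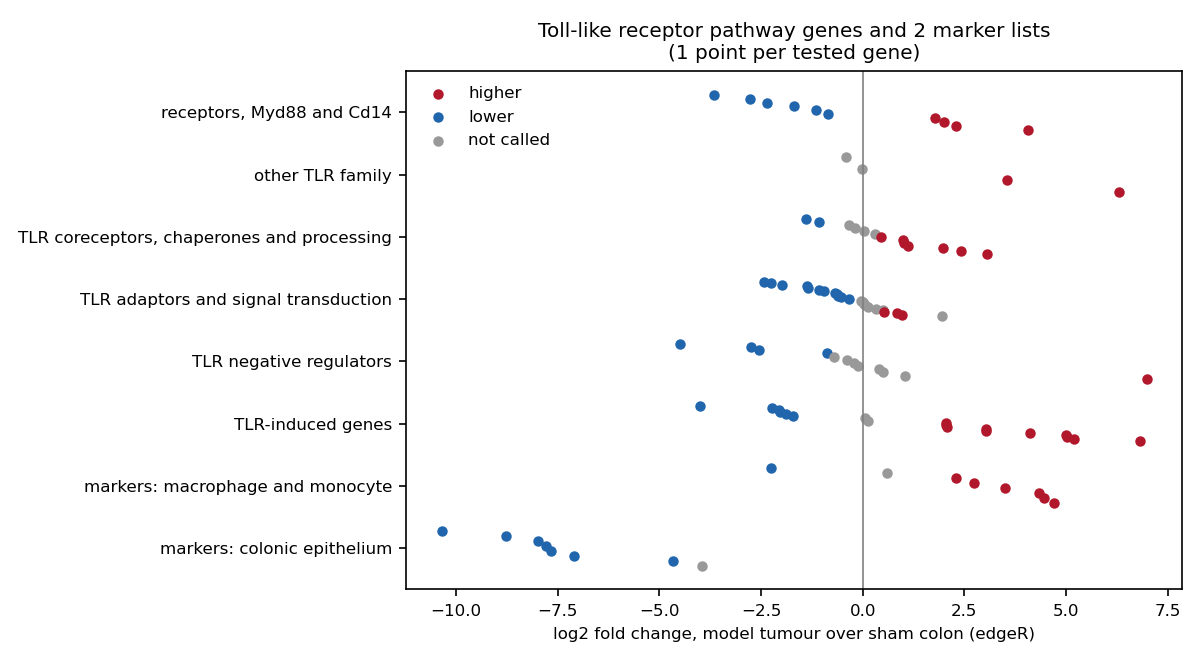
Log2 fold change in model tumours over sham colon (edgeR) of each tested gene in 6 gene lists of the pathway and 2 marker lists, coloured by call (red higher, blue lower, grey not called). The 10 genes of the top row split into 4 above and 6 below 0, the macrophage markers lie mostly above 0 and 7 of the 8 colonic epithelium markers were called lower.

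Markers of other cells moved with these genes. Of 8 macrophage and monocyte markers, 6 were higher, Mertk was lower and Lyz2 was not called in both comparisons against sham. Their summed level was 1361, 1301 and 956 CPM in AC tumours, 819, 758 and 1073 CPM in model tumours, and 1010, 354 and 308 CPM in sham colon, and none of the 8 was at 0 in any library. Lyz2, 1 of the 8, measured 832 CPM in sham 1, against 141 and 101 CPM in the other colon libraries. Its mean was 860 CPM in AC tumours, 552 CPM in model tumours and 358 CPM in sham colon. The means of Mertk were 25.3, 34.2 and 167 CPM in the same groups. Lyz2 and Mertk, neither called higher, together made up most of the mean sum in each group. A percent of the sum therefore largely follows them. As a percent of that sum, Tlr13 was 2.90, 2.61 and 3.64% in AC tumours, 4.04, 4.45 and 3.65% in model tumours, and 0.385, 0.339 and 0.391% in sham colon, and Tlr1 was 0.988, 0.791 and 1.56% in AC tumours, 1.62, 1.25 and 0.976% in model tumours, and 13.1, 41.1 and 49.2% in sham colon. Tlr4 was 4.33, 3.65 and 4.84% of it in AC tumours, 7.10, 8.01 and 5.77% in model tumours, and 2.38, 4.37 and 4.37% in sham colon. Tlr9 was 0.154, 0.123 and 0.378% in AC tumours, 0.835, 0.522 and 0.295% in model tumours, and 0.131, 0.226 and 0.253% in sham colon. For Tlr4 and Tlr9, on this scale, AC tumours overlapped sham colon and model tumours did not. Tlr7 was 1.24 to 1.79% in AC tumours, 1.77 to 2.20% in model tumours and 0.566 to 0.828% in sham colon, with every tumour above colon on this scale. The other 5 genes were below colon in every tumour on this scale too. Tlr2 was 1.012 to 1.09% in AC tumours, 1.36 to 1.79% in model tumours and 9.41 to 30.6% in sham colon, and Tlr3 was 1.92 to 4.03%, 3.82 to 4.81% and 8.78 to 27.5% in the same groups. Tlr5 was 0.196 to 0.307% in AC tumours, 0.251 to 0.418% in model tumours and 0.700 to 6.60% in sham colon. Myd88 was 2.45 to 2.75% in AC tumours, 2.18 to 3.94% in model tumours and 4.86 to 15.1% in sham colon, and Cd14 was 5.50 to 5.91%, 7.76 to 8.05% and 16.8 to 82.6% in the same groups.

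Of 8 colonic epithelium markers 7 were lower in tumours, with the sums given above and 1 of the 8 at 0 in AC tumour 2. All 6 B cell markers were lower, with sums of 2.66 to 5.04 CPM in AC tumours, 5.87 to 20.4 CPM in model tumours and 64.4 to 1032 CPM in sham colon, and 2 of the 6 were at 0 in AC tumour 1. All 4 neutrophil markers were higher, with sums of 13.3 to 34.1 CPM in AC tumours, 23.3 to 36.6 CPM in model tumours and 1.20 to 4.43 CPM in sham colon, where 1 of the 4 was at 0 in sham 2 and in sham 3. All 3 endothelium markers were higher, with sums of 92.6 to 123 CPM in AC tumours, 110.3 to 125 CPM in model tumours and 29.1 to 35.9 CPM in sham colon. Of 4 fibroblast markers, 2 were higher in AC tumours and 3 in model tumours, with sums of 197 to 386 CPM in AC tumours, 375 to 434 CPM in model tumours and 64.4 to 113 CPM in sham colon. All 4 smooth muscle markers were lower, with sums of 18.1 to 90.5 CPM in AC tumours, 12.5 to 19.4 CPM in model tumours and 99.98 to 1199 CPM in sham colon. Of 5 T cell markers 4 were lower, with sums of 9.30 to 15.5 CPM in AC tumours, 14.8 to 22.03 CPM in model tumours and 36.9 to 85.8 CPM in sham colon. Of 5 tested dendritic cell markers, 1 was higher and 1 lower in AC tumours and 2 were higher and 1 lower in model tumours, with sums of 14.7 to 19.5 CPM in AC tumours, 23.6 to 36.03 CPM in model tumours and 10.3 to 21.6 CPM in sham colon. The part of these cell types in the receptor changes was not tested.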

How the data were processed

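The authors deposited unnormalized counts for each gene; featureCounts 1.5.0-p3 and the build mm9 are named in the submitters' processing notes. The deposited FPKM values are the same counts per gene length and library total. Aligner and strand setting: not given in the sources used here. The gene lengths behind the FPKM values matched GENCODE M21 (build GRCm38) within 1% for 96.8% of 22279 genes, so symbols and coordinates come from that annotation, and 54409 of 56398 features were paired with it.

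For each comparison, only the 6 libraries of its groups entered an edgeR 4.0.16 fit (R 4.3.3; filterByExpr, TMM, robust glmQLFit, glmQLFTest, Benjamini-Hochberg adjusted p over all genes, threshold 0.05). The procedure was also run on simulated counts in which a small set of genes was raised. Most genes differed between tumour and colon, so that run does not bear on the comparisons against sham. SE is the log2 fold change divided by the root of F. Counting intervals and floors leave out all error except that of counting, since PCR copies cannot be told from molecules here. Alternatives were other scaling factors, no filter, DESeq2 1.42.0, limma 3.58.1, all 9 libraries in 1 fit, a replicate block and libraries left out. Replicate pairs all differed by more than sampling noise (chi-square per degree of freedom 3.06 to 118.8). The genes and lists were chosen with earlier results of these data known. All 10 genes are named, with the 4 other receptors; other lists give up to 3 genes per direction with the smallest p, and further list genes were chosen after their values were seen.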

Additional observations from a re-analysis of the deposited data

How the results depend on the processing

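Against sham, the direction of all 10 genes was the same under all 14 alternatives of each comparison, and 138 of 140 single-gene values in model tumours and 132 of 140 in AC tumours stayed on the same side of the threshold. The exceptions were Myd88 without scaling factors, and Tlr7 and Tlr9 with the settings named beside them. The number of genes higher in AC tumours against sham ran from 2 to 4 when single libraries were left out, with 2 without AC replicate 1. For AC against model tumours, the number of all genes called was 0 with edgeR, 289 with DESeq2, 105 with no filter on low counts, 94 without model replicate 1 and AC replicate 3 together, and 0 to 569 when single libraries were left out. In that comparison 13 single-gene values, of genes never called, changed sign. With single libraries left out, the log2 fold change ran from -0.257 to 0.0074 for Tlr2, -0.294 to 0.0048 for Tlr3, -0.275 to 0.242 for Tlr5, -0.0354 to 0.239 for Tlr7, -0.0344 to 0.107 for Tlr13 and -0.135 to 0.103 for Cd14. Without model replicate 1 and AC replicate 3 together it was 0.0825 for Tlr2, -0.0001 for Tlr13 and 0.0271 for Cd14. The cause was not tested. Leaving out both of those libraries equals leaving out 1 of them against sham, so it was not repeated there.

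Same-numbered AC and model libraries correlated at -0.462, 0.376 and -0.369 in their deviations from the group means (18920 genes), without a common sign. Deviations from the mean of 3 libraries depend on each other, so these values cannot show whether the replicate numbers pair the libraries. With the replicate block, 3 genes were higher and 6 lower in AC tumours against sham, where Tlr9 had a log2 fold change of 1.28 (adjusted p 0.0844), and 4 were higher and 6 lower in model tumours against sham. In AC against model tumours the block gave 0 calls. Depth limits Tlr9, Tlr11 and Tlr12, which had at most 184 counts in any library. It also limits Tlr8, Tlr13 and Tlr7 in sham colon, where Tlr13 averaged 2.10 CPM and Tlr7 4.29 CPM, so the size of their rises is uncertain.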
